A study of Mus musculus with 6 samples.

Results

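The genes described here make, sense, move and export cholesterol. The set holds 34 genes picked for their roles in the pathway, and 30 of them had a probe set of their own among the 22180 named genes measured. For the 2 genes with several such probe sets, Npc1 and Scap, the brighter was used. Acat2, Idi1, Soat1 and Nr1h2 had no single-gene probe set and were not analysed here. The samples were fibroblasts from female C57BL/6 mice aged 8 to 12 weeks. K14-PTHrP transgenic mice (KrP) gave 3 samples, from ventral skin that is nipple-like, and wild-type littermates (WT) gave 3, from ventral skin in telogen. The keratin 14 promoter places parathyroid hormone-related protein in basal keratinocytes, so the sorted fibroblasts are not the cells that the transgene targets. The sort kept viable CD140-positive cells and left out those with CD49f, CD117, CD45 or CD31, and cells were pooled beforehand. The labels name 3 mice as the source without saying for which samples, so the p-values rest on a spread between samples that may be technical.

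Animal cells build cholesterol from acetyl-CoA through mevalonate, farnesyl pyrophosphate, squalene and lanosterol. When membranes of the endoplasmic reticulum run low in sterol, Scap carries the SREBP transcription factors to the Golgi, where they are cut and released to switch on the genes of synthesis and uptake, and the Insig proteins hold Scap back when sterol is plentiful. Oxysterols formed from surplus cholesterol activate the liver X receptors (LXR), which switch on the exporters Abca1 and Abcg1 and the ubiquitin ligase Mylip, known to mark lipoprotein receptors for breakdown. The sources used here state no purpose of the study for this pathway beyond the comparison of the KrP and WT profiles.

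Each sample was measured on 1 array as log2 values, with array medians from 6.34 to 6.43. Olfactory receptor genes, of which 1088 were measured, served as a guide to background, and their 95th percentile was 6.30. None of the 30 cholesterol genes had a value under it in any sample. Between arrays, correlations over all probe sets were 0.986 to 0.994 within groups and 0.976 to 0.989 across groups. KrP 2 stood nearest to the WT arrays, at 0.989 with each, against 0.976 to 0.986 for KrP 1 and 0.984 to 0.988 for KrP 3, so the calls below that change without it are given both ways. Over all genes, limma called 255 higher (1.15%) and 228 lower (1.03%) in KrP samples at a Benjamini-Hochberg adjusted p under 0.05. The median log2 fold change over all genes was 0.01. Pdgfra, which encodes CD140a, averaged 13.47 ± 0.06 in KrP and 13.23 ± 0.10 in WT samples on the log2 scale (SD, n = 3 each). In sorted bulk samples, a change in the make-up of the cells and a change in RNA per cell cannot be told apart.

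The enzymes of cholesterol synthesis had higher averages in KrP fibroblasts at nearly every step, but not 1 of them passed the test over all genes. Of 16 measured enzymes, 15 had a log2 fold change above 0, as did 51.4% of all genes, and the median was 0.87, in a range from -0.05 to 1.74. By limma, 0 of 16 passed at an adjusted p under 0.05, where 1.15% of all genes were called higher. At an unadjusted p under 0.05, 13 of 16 were higher and 0 lower, where 9.44% of all genes were higher. In 10 of the 16, every KrP sample lay above every WT sample, which held for 11.4% of all genes. The number of enzymes called depended on the samples kept and on the fit. Without KrP 2, 12 of the 16 passed as higher (3.07% of all genes), whereas leaving out KrP 1, KrP 3 or any WT sample gave 0. Calls over all genes also fell in those fits. Against 255 higher with all samples, 173 genes were higher without KrP 1 and 45 (0.203%) without KrP 3. Without WT 1, WT 2 and WT 3 there were 122, 122 and 53. With the replicate number as a block, 10 of the 16 passed as higher (5.33% of all genes). With array weights, which weight each sample by its fit, 14 of the 16 passed as higher, but so did 16.9% of all genes.

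**Figure D1:**
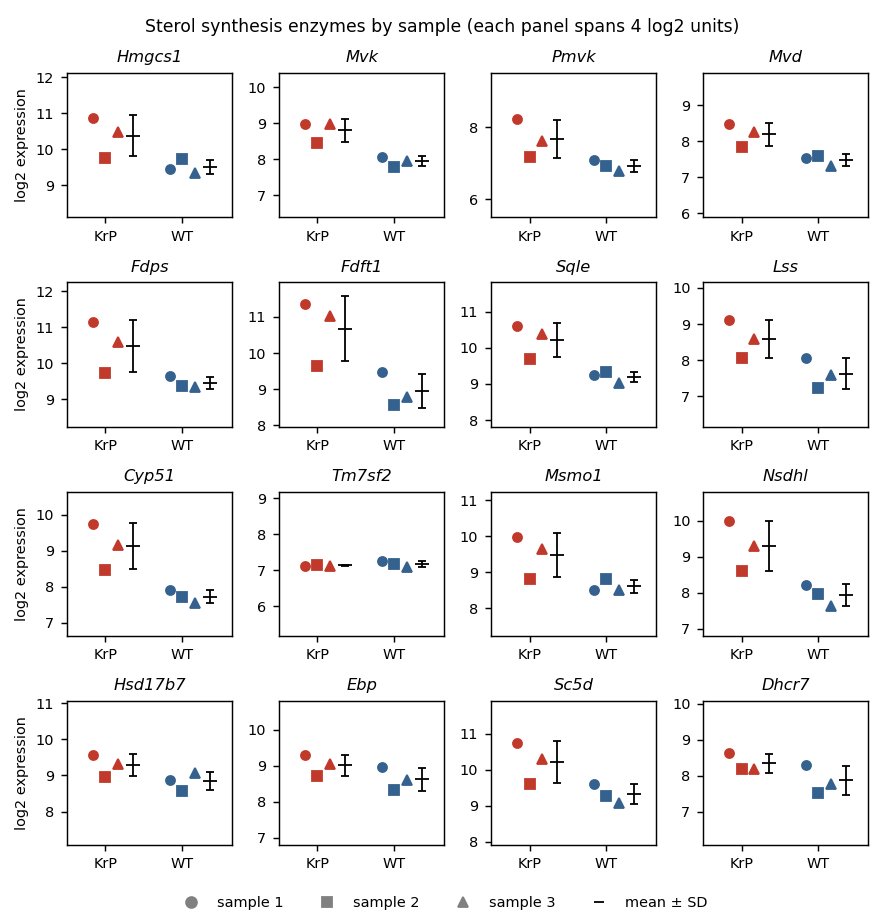
Log2 expression of the 16 measured synthesis enzymes in KrP (red, left) and WT (blue, right) samples, with each sample as a point and the mean ± SD in black. In 10 panels the KrP points lie wholly above the WT points, and KrP 2 (square) is the lowest KrP point in 14 panels.

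All 5 measured enzymes of the mevalonate steps had non-overlapping groups with KrP higher, as did 11.4% of all genes. Hmgcs1, which condenses acetoacetyl-CoA with acetyl-CoA, had log2 values of 10.88, 9.76 and 10.49 in KrP samples 1 to 3, against 9.44, 9.72 and 9.34 in WT samples 1 to 3. KrP 2 exceeded WT 2 by a narrow margin, while the other KrP samples stood well clear. Mevalonate kinase, Mvk, had 8.98, 8.44 and 8.97 in KrP samples, against 8.07, 7.79 and 7.96 in WT samples. Its log2 fold change was 0.86 ± 0.17 SE, close to the threshold at a limma adjusted p of 0.0519 (0.00877 with the block, 0.00886 without KrP 2). That p was 0.0990 to 0.250 when any other sample was left out. The next kinase of the route, Pmvk, had 8.22, 7.17 and 7.60 in KrP and 7.10, 6.91 and 6.77 in WT samples, so that KrP 2 exceeded WT 1 by little. The decarboxylase Mvd, which makes isopentenyl pyrophosphate, had 8.47, 7.85 and 8.26 in KrP and 7.54, 7.60 and 7.30 in WT samples. Fdps, the synthase of farnesyl pyrophosphate, averaged 10.50 ± 0.72 in KrP and 9.45 ± 0.17 in WT samples (SD, n = 3 each). Its KrP values of 11.16, 9.73 and 10.60 spread more widely than those of WT, 9.64, 9.37 and 9.34. The limma adjusted p was 0.152 for Hmgcs1, 0.191 for Pmvk, 0.0938 for Mvd and 0.153 for Fdps. With the block it was 0.0861 for Hmgcs1, 0.0471 for Pmvk, 0.0444 for Mvd and 0.0321 for Fdps, and without KrP 2 it lay between 0.00819 (Fdps) and 0.0396 (Pmvk) for these 4 genes.

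Fdft1 had the highest log2 fold change of the set. This squalene synthase, which commits farnesyl pyrophosphate to sterols, had 11.35, 9.65 and 11.04 in KrP samples, against 9.47, 8.57 and 8.77 in WT samples. The log2 fold change was 1.74 ± 0.43 SE (limma adjusted p = 0.0894, or 0.00665 with the block), with a 95% interval from 0.76 to 2.72, and it was 2.26 without KrP 2 (adjusted p = 0.00505). The adjusted p was 0.104 to 0.341 when any other sample was left out. The groups did not overlap, but KrP 2 lay only just above WT 1. Sqle, squalene epoxidase, had 10.60, 9.69 and 10.38 in KrP and 9.24, 9.32 and 9.04 in WT samples. Its difference of 1.02 ± 0.23 (log2, SE) had an adjusted p of 0.0671 by limma, 0.0293 with the block and 0.00421 without KrP 2. Lss, which closes epoxysqualene into lanosterol, had 9.10, 8.07 and 8.58 in KrP and 8.06, 7.21 and 7.59 in WT samples, and here KrP 2 and WT 1 nearly met. With the block, which sets each KrP sample against the WT sample of its number, the adjusted p of Lss was 0.00447, against 0.154 without it (limma). Leaving out KrP 2 gave 0.0451.

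Lanosterol is then demethylated, reduced and isomerised. Cyp51, the demethylase that acts next, had 9.75, 8.48 and 9.16 in KrP samples, against 7.92, 7.73 and 7.54 in WT samples. Every KrP sample stood clearly above every WT sample. The log2 fold change of 1.40 ± 0.29 SE had a limma adjusted p of 0.0542, which was 0.0122 with the block and 0.00591 without KrP 2. That p was 0.0681 to 0.230 when any other sample was left out. Nsdhl, a dehydrogenase that helps remove methyl groups at carbon 4, showed the same order of samples, with 9.99, 8.60 and 9.29 in KrP and 8.22, 7.98 and 7.63 in WT samples. Its log2 fold change was 1.35 ± 0.32 SE (adjusted p = 0.0860 by limma, 0.0170 with the block, 0.0114 without KrP 2). Msmo1, the oxidase of the same complex, averaged 9.48 ± 0.60 in KrP and 8.61 ± 0.18 in WT samples (SD, n = 3 each), and its groups overlapped because KrP 2 (8.81) lay under WT 2 (8.82). Its adjusted p was 0.174 by limma, 0.103 with the block and 0.00955 without KrP 2. The reductase of that complex, Hsd17b7, differed by 0.45 ± 0.19 (log2, SE). Its adjusted p was 0.303 by limma, 0.0695 with the block and 0.102 without KrP 2.

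The last steps of the route are those of Ebp, Sc5d and Dhcr7. Sc5d, the sterol desaturase, had 10.75, 9.61 and 10.28 in KrP and 9.61, 9.26 and 9.07 in WT samples, and KrP 2 equalled WT 1. Its log2 fold change was 0.90 ± 0.28 SE (adjusted p = 0.160 by limma, 0.0291 with the block, 0.0201 without KrP 2). Ebp, the sterol isomerase, and Dhcr7, the reductase that completes cholesterol, had log2 fold changes of 0.39 ± 0.21 and 0.47 ± 0.22 with overlapping groups, and neither passed with the block or without KrP 2. Tm7sf2, a sterol reductase whose reaction Lbr can also carry out, was the 1 enzyme with a log2 fold change under 0, at -0.05 ± 0.11 SE. It had 7.13, 7.14 and 7.13 in KrP samples, against 7.27, 7.18 and 7.10 in WT samples. The 95% interval of its log2 fold change ran from -0.29 to 0.19, and that of Cyp51 from 0.73 to 2.07. The difference between these enzymes was not tested.

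Promoter windows were searched because 15 of the 16 measured enzymes averaged higher in KrP. RefSeq windows on GRCm38.p6, from 250 bases before to 50 after each start, matched 27 of the 34 genes and 15 of the 18 enzymes listed. These 15 include Acat2 and Idi1, which were not measured. Fdft1, Fdps and Sqle had no window and were not searched. The letters TCACNNCA, shared by many known sterol response elements, the SREBP binding sites, were present on either strand in 8 of the 15 enzymes, against 15.7% of 27025 genes with a window. CCAAT, the box bound by NF-Y, a usual partner of SREBP, was present in 14 of the 15, against 41.1% of genes. Among these 14 are Idi1, which was not measured, and Tm7sf2, which did not average higher in KrP. The enzymes of synthesis were known as a group of SREBP targets beforehand, so these shares carry no weight as a result. The letters were chosen with these windows in view, and a match is a description of sequence and not evidence of binding. Below are the windows of Cyp51 (chr5:4104648-4104947, minus strand), Nsdhl (chrX:72918271-72918570, plus strand) and Hmgcs1 (chr13:119690101-119690400, plus strand), shown because they hold both motifs in enzymes of the demethylation and mevalonate steps. Capitals mark TCACNNCA and CCAAT on either strand, and the motifs do not overlap.
Cyp51: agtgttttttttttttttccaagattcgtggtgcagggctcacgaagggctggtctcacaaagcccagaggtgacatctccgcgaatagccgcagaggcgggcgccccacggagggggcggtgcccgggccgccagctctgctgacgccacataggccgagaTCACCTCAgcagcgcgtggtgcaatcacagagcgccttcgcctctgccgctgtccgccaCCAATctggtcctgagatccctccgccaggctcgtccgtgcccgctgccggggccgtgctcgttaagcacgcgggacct
Nsdhl: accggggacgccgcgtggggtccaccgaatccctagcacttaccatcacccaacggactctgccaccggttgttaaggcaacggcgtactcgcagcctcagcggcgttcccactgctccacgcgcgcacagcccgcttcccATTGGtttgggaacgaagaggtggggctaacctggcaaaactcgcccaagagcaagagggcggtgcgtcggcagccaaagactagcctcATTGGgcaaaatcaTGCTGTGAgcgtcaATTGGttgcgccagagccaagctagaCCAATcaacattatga
Hmgcs1: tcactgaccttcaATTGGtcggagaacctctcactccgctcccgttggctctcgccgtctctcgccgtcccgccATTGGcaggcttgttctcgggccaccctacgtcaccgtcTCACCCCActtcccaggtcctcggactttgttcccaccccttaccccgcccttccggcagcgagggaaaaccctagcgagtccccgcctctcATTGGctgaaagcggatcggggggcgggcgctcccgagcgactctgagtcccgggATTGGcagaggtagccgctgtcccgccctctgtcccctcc
Counted from the start of transcription, TCACNNCA begins at -88 in Cyp51, at -6 in Nsdhl, where it is read on the opposite strand, and at -137 in Hmgcs1. CCAAT matches begin at -29 in Cyp51, at -109, -20, 9 and 35 in Nsdhl and at -237, -176, -45 and 11 in Hmgcs1.

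**Figure D2:**
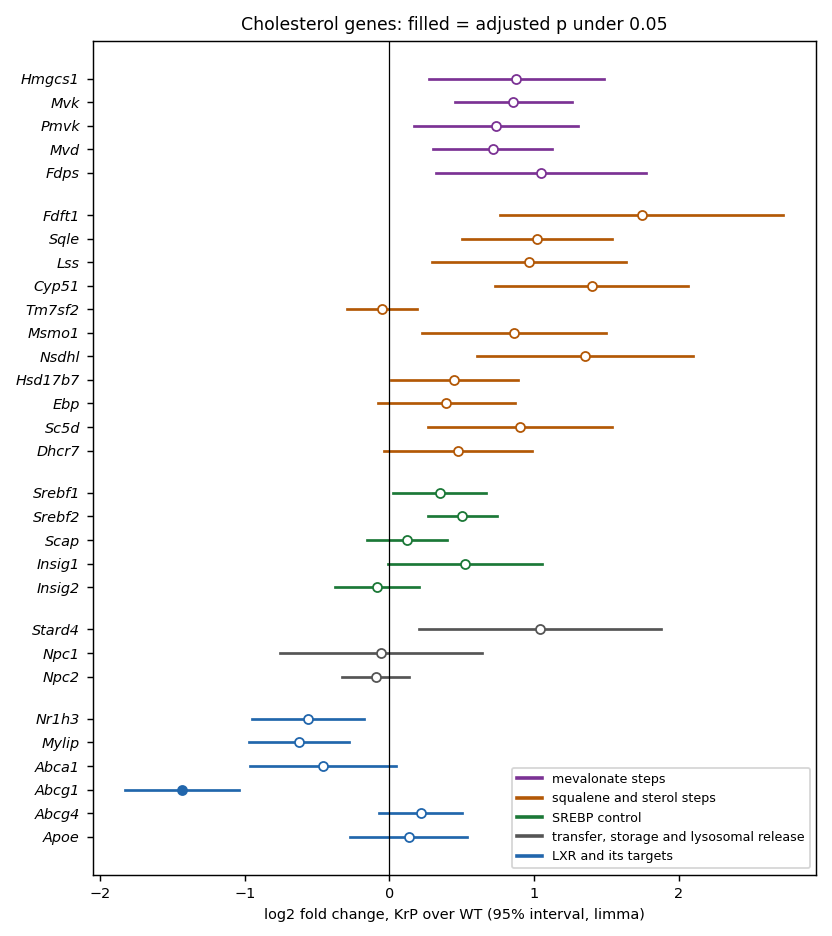
Log2 fold change of KrP over WT (point) with its 95% interval from limma (bar) for the 30 measured cholesterol genes, coloured by role. The synthesis enzymes other than Tm7sf2 lie right of 0, while Nr1h3, Mylip, Abca1 and Abcg1 lie left of it, and Abcg1 is the 1 filled point (adjusted p under 0.05).

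Among the regulators of synthesis, Srebf2 came nearest to a call. Srebf2, which encodes SREBP2, the main activator of the cholesterol enzymes, had 11.25, 11.06 and 11.13 in KrP samples, against 10.68, 10.72 and 10.53 in WT samples. The groups were well separated and KrP 2 lay close to the other KrP samples. The log2 fold change was 0.50 ± 0.10 SE (limma adjusted p = 0.0527, or 0.0222 with the block and 0.0377 without KrP 2). When any other sample was left out, the adjusted p was 0.102 to 0.240. Srebf1, whose SREBP1c form is better known for fatty acid genes, had 9.71, 9.30 and 9.41 in KrP and 9.20, 9.04 and 9.14 in WT samples. This was a non-overlapping difference of 0.35 ± 0.14 (log2, SE). Its adjusted p was 0.275 by limma, 0.0976 with the block and 0.138 without KrP 2. Insig1, the feedback brake that SREBP itself induces, had 11.67, 10.68 and 11.50 in KrP samples, against 10.74, 10.75 and 10.80 in WT samples. KrP 1 and KrP 3 stood above all WT samples and KrP 2 below them. The limma adjusted p was 0.327 with all samples, 0.147 with the block and 0.00710 without KrP 2. Leaving out any other sample gave 0.418 to 0.638. Insig2, the related brake that is not known as an SREBP target, differed by -0.09 ± 0.13 and the escort protein Scap by 0.12 ± 0.12 (log2, SE), with overlapping groups. In total 0 of the 5 regulators passed by limma, where 1.15% of all genes were called higher. At an unadjusted p under 0.05, 2 of the 5 were higher (9.44% of all genes), and the median log2 fold change was 0.35.

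Of the 3 measured genes for moving sterol inside the cell, 0 passed by limma and 1 was higher at an unadjusted p under 0.05 (9.44% of all genes). Stard4, a soluble carrier of cholesterol and a known SREBP target, had 8.49, 6.94 and 8.14 in KrP samples, against 7.14, 6.66 and 6.64 in WT samples. KrP 2 lay within the WT range here. The log2 fold change was 1.04 ± 0.36 SE (limma adjusted p = 0.210, 0.0425 with the block, 0.00819 without KrP 2). When any other sample was left out, the adjusted p was 0.219 to 0.513. Npc1 and Npc2 pass cholesterol out of lysosomes after uptake. Their log2 fold changes were -0.06 ± 0.30 for Npc1 and -0.09 ± 0.10 for Npc2 (SE). Npc1 varied widely in both groups, with 11.06, 9.78 and 10.44 in KrP and 10.81, 10.18 and 10.47 in WT samples, so its 95% interval ran from -0.76 to 0.64. Its log2 fold change was 0.26 without KrP 2 and 0.10 without WT 1.

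On the export side, Abcg1 fell and was the 1 member of the 30 called by limma, where 2.18% of all genes were called in either direction. Abcg1, a transporter that loads cholesterol onto high-density lipoprotein, had 10.83, 10.81 and 10.19 in KrP samples, against 12.12, 11.99 and 12.02 in WT samples. All KrP samples, KrP 2 included, lay more than a log2 unit below all WT samples. The level was 2.70-fold lower in KrP (log2 fold change -1.43 ± 0.17 SE, adjusted p = 0.00707 by limma, 0.00286 with the block), where 1.03% of all genes were called lower. The call passed in 14 of 15 alternative fits and ended without WT 3, at an adjusted p of 0.0511. Without KrP 2 the log2 fold change was -1.53 (adjusted p = 0.00508). Without KrP 3 the call held, at a point where 0.383% of all genes were called. With the block 14 of the 30 members passed (8.35% of all genes), and without KrP 2 17 passed (5.03% of all genes). Among these, Abcg1 and Mylip were the 2 lower ones in both fits (3.02% of all genes lower with the block, 1.96% without KrP 2). With array weights 23 of 30 passed, where 28.9% of all genes did, and 4 of them were lower (12.0% of all genes).

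Mylip and Nr1h3 also had lower KrP averages with no overlap of the groups. Of the 6 measured genes of LXR and its targets, 3 had groups that did not overlap with KrP lower (8.93% of all genes), and the median log2 fold change was -0.51. Mylip, the ligase described above, had 9.65, 10.09 and 9.64 in KrP samples, against 10.29, 10.53 and 10.43 in WT samples. Its log2 fold change was -0.62 ± 0.15 SE (limma adjusted p = 0.0869, or 0.0170 with the block and 0.0161 without KrP 2). When any other sample was left out, the adjusted p was 0.128 to 0.350. Nr1h3, which encodes LXR alpha, had 7.60, 7.76 and 7.34 in KrP and 8.33, 7.86 and 8.20 in WT samples, with KrP 2 and WT 2 nearly equal. Its log2 fold change of -0.56 ± 0.17 had a limma adjusted p of 0.150, or 0.0885 with the block and 0.0831 without KrP 2. Abca1, which loads cholesterol onto lipid-poor apolipoproteins, had 10.74, 9.97 and 10.31 in KrP samples, against 10.86, 10.47 and 11.07 in WT samples. KrP 1 lay inside the WT range, and the log2 fold change of -0.46 ± 0.22 did not pass (limma adjusted p = 0.357). Without KrP 2 it was -0.28 (adjusted p = 0.525), and with the block the adjusted p was 0.0854. Apoe, a lipoprotein component and LXR target of macrophages, averaged 7.89 ± 0.21 in KrP and 7.76 ± 0.28 in WT samples, and Abcg4, a relative of Abcg1 best known from brain, averaged 7.35 ± 0.17 in KrP and 7.14 ± 0.06 in WT samples (SD, n = 3 each). Neither passed the test, and the log2 fold change of Apoe was -0.02 without WT 1 against 0.13 with all samples.

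LXR binds direct repeats with 4 bases between the half-sites. The letters GGTNA followed after 5 bases by GGTCA, which spell such a repeat, were searched on either strand. They were found in the windows of Abca1 and Srebf1 and in no other of the 27 members with a window, against 0.226% of 27025 genes with a window. Abcg1 had no window and was not searched. Abca1 and Srebf1 were known LXR targets beforehand, so their matches carry no weight as a result. A match is a description of sequence and not evidence of binding. The windows of Abca1 (chr4:53159846-53160145, minus strand) and Srebf1 (chr11:60210422-60210721, minus strand) are shown because both genes are known LXR targets, and capitals mark the repeat, read on the opposite strand in both.
Abca1: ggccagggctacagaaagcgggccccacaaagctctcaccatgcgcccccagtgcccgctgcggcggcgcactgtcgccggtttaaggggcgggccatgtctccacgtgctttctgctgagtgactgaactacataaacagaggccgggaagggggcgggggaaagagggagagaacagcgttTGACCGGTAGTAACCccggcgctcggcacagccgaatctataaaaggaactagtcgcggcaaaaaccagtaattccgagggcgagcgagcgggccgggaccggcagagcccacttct
Srebf1: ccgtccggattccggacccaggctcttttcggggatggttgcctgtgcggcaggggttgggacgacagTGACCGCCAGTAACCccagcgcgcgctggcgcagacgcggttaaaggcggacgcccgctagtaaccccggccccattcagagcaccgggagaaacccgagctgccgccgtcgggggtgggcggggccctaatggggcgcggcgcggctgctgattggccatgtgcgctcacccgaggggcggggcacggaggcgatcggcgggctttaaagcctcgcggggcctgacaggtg
The repeat begins at -67 in Abca1 and at -182 in this window of Srebf1. These genes shared the motif but not the direction of their averages, with log2 fold changes of -0.46 for Abca1 and 0.35 for Srebf1.

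**Figure D3:**
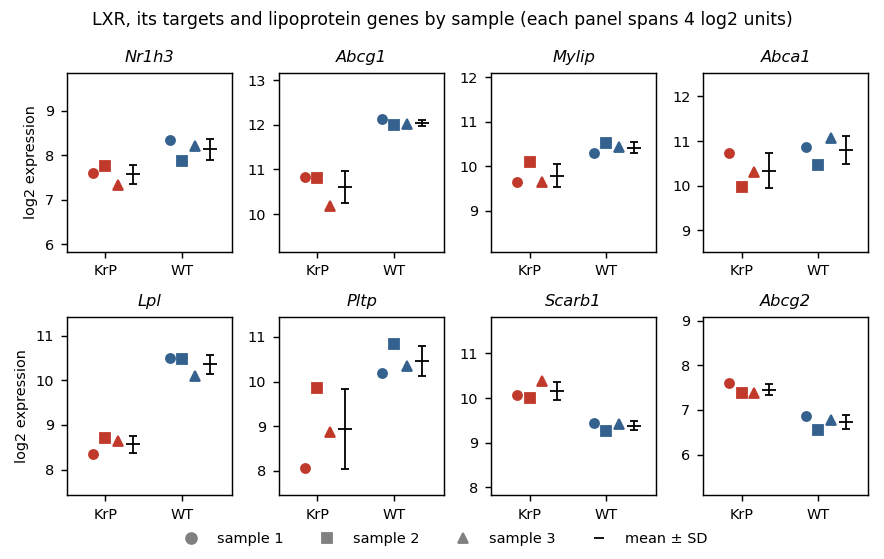
Log2 expression of LXR alpha (Nr1h3), its targets, lipoprotein genes and the exporter Abcg2 in KrP (red, left) and WT (blue, right) samples, with the mean ± SD in black. Nr1h3, Abcg1, Mylip, Lpl and Pltp are wholly lower and Scarb1 and Abcg2 wholly higher in KrP. KrP 2 (square) is on the KrP side in each of these, and the groups of Abca1 overlap.

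The enzymes also followed a shared order within the KrP group. In 14 of the 16 enzymes the order was KrP 1 above KrP 3 above KrP 2, an order seen in 21.4% of all genes. Set against each enzyme's WT mean, the median over the 16 enzymes was 1.37 in KrP 1, 0.31 in KrP 2 and 0.98 in KrP 3, and 0.18, -0.03 and -0.13 in WT 1 to 3 (log2). Over all genes the same median was -0.03, 0.03 and 0.01 in the KrP samples. The enzymes therefore spread more in KrP than in WT samples, with a median SD of 0.52 against 0.19, where the medians over all genes were 0.15 in both groups. The order was not limited to the enzymes: 21 of the 30 members had it, among them Srebf1, Srebf2, Insig1, Stard4, Npc1, Npc2 and Abca1, and so did 14 of the 25 other genes of sterol transfer and storage. Whether it was more frequent in the enzymes than in these genes was not tested. For the 6 LXR genes the medians against the WT mean were -0.32, -0.35 and -0.63 in KrP 1 to 3, so that KrP 2 lay beside KrP 1.

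**Figure D4:**
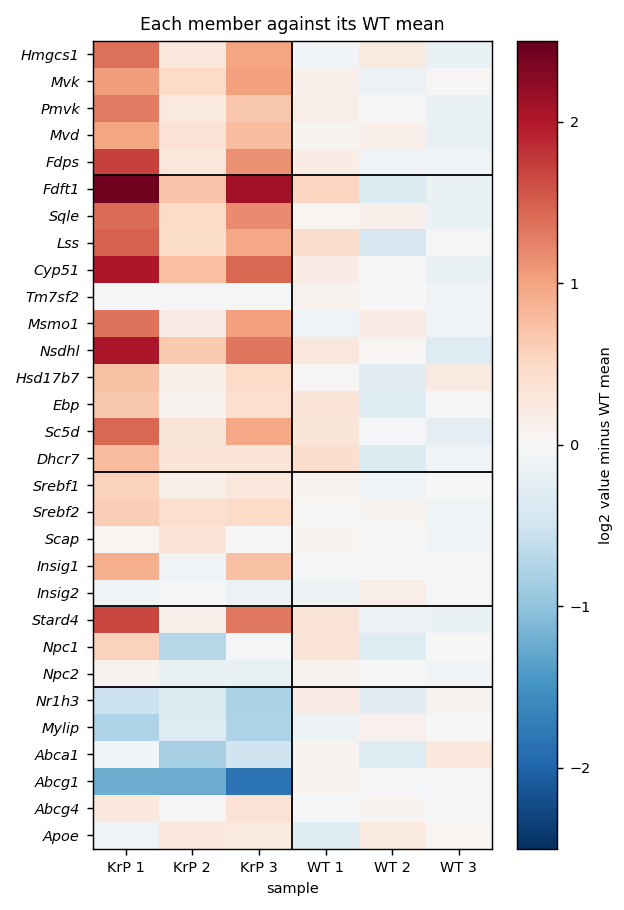
Log2 value of each of the 30 measured cholesterol genes minus its WT mean, by sample, with KrP samples left of WT samples and black lines between roles. The enzyme rows are darkest red in KrP 1 (median 1.37), paler in KrP 3 (0.98) and palest in KrP 2 (0.31), while Abcg1 is blue in all 3 KrP samples.

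Other genes of sterol handling were taken from 7 lists, of which 118 genes were measured, and 4 rose and 4 fell by limma, where 1.15% of all genes were called higher and 1.03% lower. Scarb1, the receptor that takes cholesterol ester from high-density lipoprotein, rose 1.71-fold and was the 1 called gene among 12 lipoprotein receptors and uptake genes. It had 10.07, 10.00 and 10.38 in KrP samples, against 9.44, 9.26 and 9.43 in WT samples, with no overlap (limma adjusted p = 0.0323). Its call ended when KrP 1, KrP 3 or any WT sample was left out, with adjusted p from 0.0516 to 0.171. In the list of LXR partners, targets and lipoprotein genes, 1 of 28 rose (1.15% of all genes) and 3 fell (1.03%). Lpl, lipoprotein lipase and a known LXR target, had 8.35, 8.71 and 8.63 in KrP samples, against 10.49, 10.47 and 10.10 in WT samples. It was 3.46-fold lower in KrP (log2 fold change -1.79 ± 0.16 SE, limma adjusted p = 0.00251) and passed in all 15 alternative fits. Lpl had 2 probe sets, and these values are of the brighter. With the probe sets averaged, its log2 fold change was smaller, at -1.42 (limma adjusted p = 0.00536). The transporters Abca8a and Abca8b fell, and Abcg2, an exporter of drugs and porphyrins, rose by 0.72 on the log2 scale. All 3 KrP values of Abca8b (6.09, 6.03 and 5.72) lay under the background guide of 6.30, so with KrP values set to the guide it was at least 1.48-fold lower in KrP. Of Abca8a (6.25, 6.50 and 6.48 in KrP, against 7.27, 7.18 and 7.76 in WT samples), 1 KrP value lay under the guide, and it was at least 1.97-fold lower on the same basis. Abca8a and Abca8b are close relatives whose probes may share signal. The calls of these 3 transporters passed in 11 of 15, 10 of 14 and 10 of 15 alternative fits, and each ended without KrP 1, KrP 3 or WT 3 (adjusted p from 0.0527 to 0.171). Without WT 1 the calls of Abca8a (0.0657) and Abcg2 (0.0645) ended, and without WT 2 those of Abca8b (0.0960) and Abcg2 (0.0847). Pltp, which moves phospholipid between lipoproteins and was chosen after its values were seen, had 8.06, 9.85 and 8.88 in KrP samples, against 10.20, 10.84 and 10.35 in WT samples. The groups did not overlap, and the limma adjusted p was 0.108, or 0.00860 with the block and 0.00904 without KrP 2. Leaving out any other sample gave 0.154 to 0.3475.

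Enzymes of oxysterol and bile acid metabolism gave 1 rise and 1 fall among 11 measured, where 1.15% of all genes were called higher and 1.03% lower. Ephx1, an epoxide hydrolase, had 10.66, 10.29 and 10.71 in KrP samples, against 9.60, 9.72 and 9.93 in WT samples. It rose by 0.80 ± 0.15 on the log2 scale (SE, limma adjusted p = 0.0388). Cyp8b1, the sterol hydroxylase of bile acid synthesis in liver, had 5.81, 6.28 and 6.25 in KrP samples, under the background guide of 6.30, against 7.36, 7.55 and 7.90 in WT samples. With KrP values set to that guide it was at least 2.47-fold lower in KrP (limma adjusted p = 0.00751). The groups stayed apart in both genes, and the call of Cyp8b1 passed in all 15 alternative fits while that of Ephx1 passed in 9. Without KrP 1, KrP 3 or any WT sample the adjusted p of Ephx1 was 0.0869 to 0.214. Of 15 measured fatty acid genes known as SREBP1 targets, Gpam, which starts triglyceride synthesis, rose 2.06-fold (adjusted p = 0.0386) and passed in 9 of 15 alternative fits. It lost its call without KrP 1, KrP 3 or any WT sample, at 0.0843 to 0.208. The other 14 did not pass, and 7 of the 15 were higher at an unadjusted p under 0.05 (9.44% of all genes). Fasn, the fatty acid synthase, had a log2 fold change of -0.02 ± 0.10. Fads2, a fatty acid desaturase chosen after its values were seen, had 11.39, 8.37 and 10.59 in KrP samples, against 8.68, 8.25 and 8.31 in WT samples. KrP 1 and KrP 3 stood far above the WT samples and KrP 2 among them. The limma adjusted p was 0.251 with all samples, 0.0687 with the block and 0.00278 without KrP 2. Leaving out any other sample gave 0.300 to 0.554. In the remaining lists, 0 of 11 genes of synthesis and side branches, 0 of 16 of SREBP processing and 0 of 25 of sterol transfer and storage passed by limma. At an unadjusted p under 0.05, 6 of the 25 transfer genes were higher and 2 lower, and 3 of the 16 processing genes were higher, where 9.44% of all genes were higher and 6.56% lower. The 2 lower transfer genes are near the all-gene share.

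Marker lists of other skin cells held 4 calls, of Csf1r, Cldn5, Tek and Cspg4, where 1.15% of all genes were called higher and 1.03% lower. Of 12 sebocyte, 10 adipocyte and 11 keratinocyte markers measured, 0 passed by limma in each list. At an unadjusted p under 0.05, 2 sebocyte markers were higher (9.44% of all genes) and 1 keratinocyte marker was lower (6.56%). Under the background guide in every sample lay 4 of the sebocyte markers (Awat1, Awat2, Cidea and Far2) and 5 of the adipocyte markers (Adipoq, Cidec, Lep, Retn and Adig). The mean log2 level of the sebocyte list was 6.34 to 6.56 in KrP and 6.28 to 6.55 in WT samples. For the adipocyte list it was 6.11 to 6.31 in KrP and 6.27 to 6.29 in WT samples, and for keratinocytes 6.32 to 6.64 in KrP and 6.55 to 7.25 in WT samples. WT 2 stood out in the keratinocyte list. Set against each marker's WT mean, the list median was 0.50 in WT 2 and -0.25 in both WT 1 and WT 3. In KrP 1 to 3 this median was -0.51, -0.27 and -0.24. Of 12 macrophage markers, Csf1r rose (log2 fold change 0.73, limma adjusted p = 0.0347) and the other 11 did not pass. Their mean level was 6.38 to 6.45 in KrP and 6.30 to 6.54 in WT samples, and 7 of the 12 lay under the guide in every sample, among them Adgre1, Cd163 and Ptprc, the gene of CD45. Csf1r lost its call without KrP 1, KrP 3, WT 1 or WT 3 (adjusted p from 0.0772 to 0.196). Of 10 endothelial markers, Cldn5 and Tek fell, with 2 of 3 KrP values of Cldn5 and all 3 of Tek under the guide. With such values set to the guide, Cldn5 was at least 1.80-fold and Tek at least 1.17-fold lower in KrP. Tek lost its call when any 1 sample was left out (0.0524 to 0.125) and Cldn5 without KrP 3 (0.0967) or WT 3 (0.0630). The endothelial mean level was 6.45 to 6.64 in KrP and 6.60 to 6.89 in WT samples. Kdr, the endothelial receptor of VEGF, had 7.76, 6.84 and 7.31 in KrP samples, against 9.28, 8.19 and 8.67 in WT samples. Its groups did not overlap, and the log2 fold change of -1.41 ± 0.31 SE had an adjusted p of 0.0658 by limma and 0.00158 with the block. Cdh5 went the other way, with 8.56, 8.39 and 8.04 in KrP and 7.86, 8.18 and 7.32 in WT samples. Its groups overlapped, and its log2 fold change was 0.54 ± 0.23 SE (limma adjusted p = 0.304). Of the 10 endothelial markers, 3 had a log2 fold change above 0 and 7 below, with a median of -0.05. Of 8 mural and muscle markers, the pericyte gene Cspg4 fell by 1.10 on the log2 scale (limma adjusted p = 0.0298), a call that ended without KrP 3 or any 1 WT sample (0.0704 to 0.148). Acta2, smooth muscle actin, had 10.69, 11.08 and 12.36 in KrP samples, against 9.64, 10.17 and 10.38 in WT samples, with no overlap (adjusted p = 0.154 by limma, 0.0138 with the block). The mural list had a mean level of 7.63 to 8.15 in KrP and 7.54 to 7.94 in WT samples. Of 10 mast cell and melanocyte markers 0 passed and 7 lay under the guide in every sample, with a mean level of 5.25 to 5.40 in KrP and 5.30 to 5.60 in WT samples. Kdr, Cdh5 and Acta2 were chosen after their values were seen. Of 9 fibroblast markers, 0 passed and 5 were higher at an unadjusted p under 0.05 (9.44% of all genes), with a mean level of 11.89 to 12.53 in KrP and 11.48 to 12.06 in WT samples. The part of these differences in the cholesterol results was not tested.

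**Figure D5:**
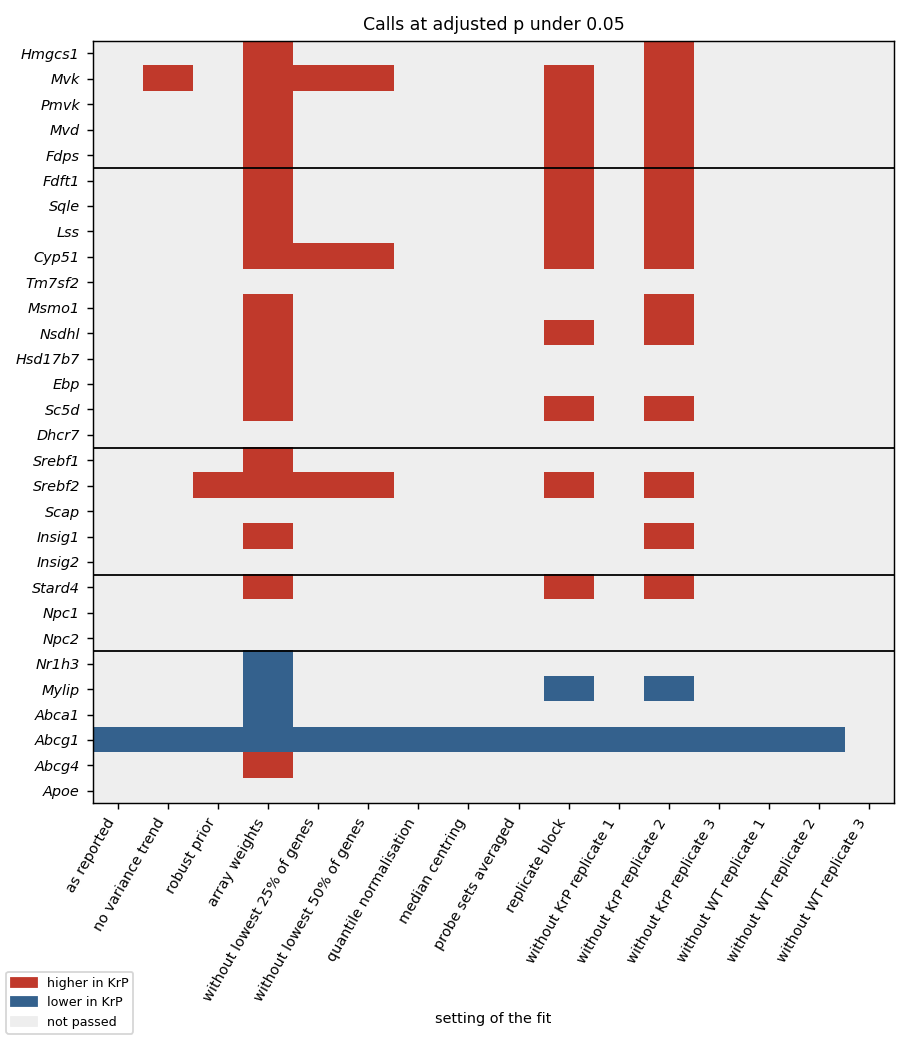
Calls at an adjusted p under 0.05 for the 30 measured cholesterol genes (rows) in the reported fit and 15 alternatives (columns), red for higher and blue for lower in KrP. Abcg1 is called in all columns but that without WT 3, and most enzyme calls stand in 3 columns, those of array weights, the replicate block and the fit without KrP 2. Mvk and Srebf2 are each called in 6 alternatives.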

How the data were processed

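Biotin-labelled RNA from 6 samples was hybridised to whole-transcript arrays, 1 per sample, from 100 ng of total RNA, per the labels' protocols. The deposited table holds log2 expression values that the authors made per probe set, with Partek and RMA as the tools listed, unversioned, per the submitters' processing notes. For background correction, filters and genome build, the sources used here give nothing. Of 34390 probe sets, 23521 had 1 gene symbol in the platform annotation, 1814 several and 9055 none. Names were updated by gene ID to RefSeq (GRCm38.p6) for 23328, and the probe set with the highest mean over the 6 samples was kept for each of 22180 genes. Arrays carry no read depth, so their number limits the precision.

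KrP and WT were compared with limma 3.58.1 in R 4.3.3 (lmFit, eBayes with a trend) on all genes, unpaired, without filter, and Benjamini-Hochberg adjustment over all 22180 genes. The fit was tested on simulated data. A log2 fold change is the KrP minus the WT mean, and a fold is its antilog. Members and gene lists were chosen with earlier results of these data known, so no list test or p over a list is given. The text names all members, up to 4 called genes per list and direction of the other sterol lists, and called marker genes. It also names Pltp, Fads2, Kdr, Cdh5 and Acta2, which were chosen after their values were seen. Where KrP values of a called gene lay under the background guide, its fold is a bound with those values set to the guide. The descriptions of KrP 2 and KrP 3 name another keratin than their genotype labels, which were used.

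The groups share the replicate numbers 1 to 3. Deviations from the group mean correlated by 0.414, 0.350 and 0.120 between same-numbered samples across genes, all above 0.1, and a pairing by number was therefore taken as possible. That reading comes from the data, not a label, so blocked p-values could be understated. Alternatives dropped the trend, used a robust prior or array weights, left out the lowest 25% or 50% of genes, normalised again, averaged probe sets, added the block, or left out each sample.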

Additional observations from a re-analysis of the deposited data

How the results depend on the processing

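Over all genes, 483 were called in the reported fit, 1851 with the replicate block, 6410 with array weights and between 85 and 1116 when 1 sample was left out (85 without KrP 3, 1116 without KrP 2). The number of cholesterol genes called, 1 in the reported fit, was 2 without the variance trend, 2 with a robust prior, 4 without the lowest 25% of genes, 4 without the lowest 50%, 14 with the replicate block, 23 with array weights and between 0 and 17 when 1 sample was left out. Array weights called 28.9% of all genes, the replicate block 8.35% and the fit without KrP 2 5.03%, against 2.18% in the reported fit. Over all genes, 460 were called without the variance trend and 487 with a robust prior. The fits without the lowest 25% and 50% called 530 and 548, out of fewer genes tested. The median log2 fold change stayed above 0 throughout, from 0.33 (without KrP 1) to 0.58 (without KrP 2) over the 30 members and from 0.63 to 1.19 over the 16 enzymes. Of 40 named genes, Npc1 changed sign without KrP 2 (0.26) and without WT 1 (0.10), in a range from -0.38 to 0.26 when 1 sample was left out, and Apoe without WT 1 (-0.0167), in a range from -0.0167 to 0.26. Insig2 came to 0.00 without WT 2. The cause was not tested. With 3 arrays a group, differences near the spread between samples could not be resolved.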
